A study of Populus deltoides x Populus x canadensis with 6 samples.

Results

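Transcripts of 7 genes of monolignol biosynthesis were followed in poplar stem, and all 7 genes were found among the 35792 rows of the table. They were chosen by identifier from a list that pairs each with a name, namely 3 caffeoyl-CoA O-methyltransferases (PtrCCoAOMT1, PtrCCoAOMT2 and PtrCCoAOMT3), 2 coniferaldehyde 5-hydroxylases (PtrCAld5H1 and PtrCAld5H2), the cinnamoyl-CoA reductase PtrCCR2 and the cinnamyl alcohol dehydrogenase PtrCAD1. The names come from that list, since the table itself annotates no gene, and they were not checked against sequence. RNA was sequenced from stems of the hybrid poplar clone Nanlin 895, in 3 wild type libraries and in 3 libraries labelled pdbri1-1;2;3;6, a genotype mutated in 4 genes of the family of BRI1, the brassinosteroid receptor. Plants of both genotypes were 45 days old, and had grown at 22 to 24 °C under days of 16 h and nights of 8 h. Each library came from the leafless basal 2 cm of the stems of 30 pooled plants. Apart from the genotype the labels give both groups the same treatment. They do not say how many independent mutant lines were used. Transcripts of the mutated receptor genes were not analysed here, which leaves the labels of the libraries unchecked.

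Lignin stiffens and waterproofs the walls of wood cells, and is polymerised from monolignols, which plants make from phenylalanine. The enzymes studied here act late in that pathway. CCoAOMT adds the methyl group that leads to guaiacyl (G) units, CCR reduces the CoA ester to an aldehyde, CAld5H hydroxylates the ring of the aldehyde, the entry to syringyl (S) units, and CAD reduces the aldehydes to the alcohols that are exported to the wall. In poplar wood these steps shape how much lignin is made and its makeup of G and S units.

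Libraries held 17752822 to 21096052 counts, and the 7 genes had 558 to 5715 counts per library, at which counting error alone gives a relative SD of 4.23% for the lowest and 1.32% for the highest. The coefficient of variation between replicates was 1.51% to 7.41%. Levels are given as scaled FPKM, that is FPKM (counts scaled by gene length and library total) with each library total adjusted by its TMM factor, which allows for differences in RNA composition. These factors were 0.957 to 0.960 in the wild type and 1.04 to 1.05 in the mutant. With library totals only, the median log2 fold change of all tested genes was 0.13 in place of 0.01, so small differences depend on the scaling. Replicates differed by more than sampling noise, with a chi-square per gene of 1.84 to 2.62 where noise alone gives about 1, and each library was counted as a separate sample.

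Transcripts of most of the 7 genes were less abundant in the mutant stem. In edgeR's quasi-likelihood test, with p-values adjusted over all genes by the Benjamini-Hochberg method, 5 of the 7 fell, 1 (PtrCCoAOMT2) rose and 1 (PtrCAld5H1) did not pass the adjusted p of 0.05. Of all 27382 genes tested, 64.1% passed, 31.0% lower and 33.1% higher. The levels of 5 of the 7 genes did not overlap between the genotypes, against 67.1% of all tested genes. Calls of a difference were thus common among all genes, and with 7 genes no test was made of whether they differed from genes in general. Their median log2 fold change (mutant over wild type) was -0.34, against 0.01 for all tested genes. With library totals only, 4 fell and 2 rose, while over all genes the split moved from 9059 higher and 8499 lower to 11718 higher and 5815 lower. In bulk stem tissue, fewer cells of a type and less RNA per cell cannot be told apart.

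**Figure D1:**
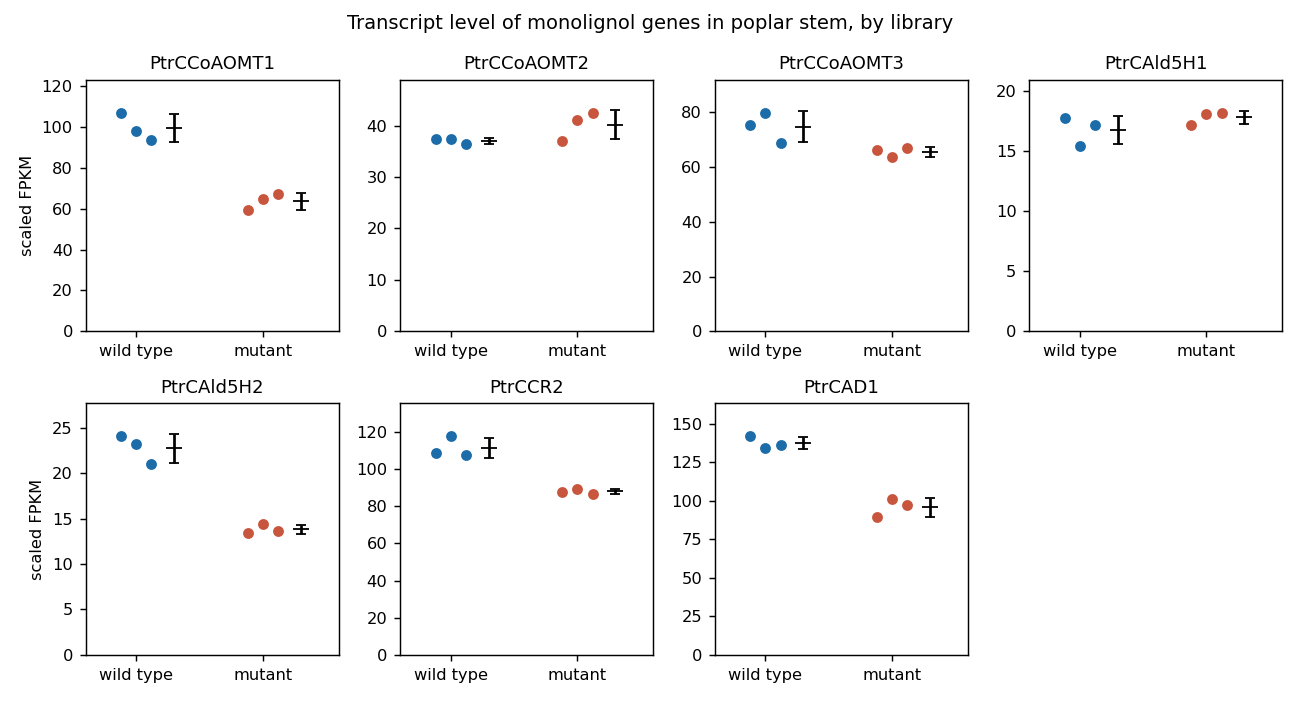
Scaled FPKM of each gene (vertical axis, from 0) in the 3 wild type (blue) and 3 mutant (red) libraries, points being libraries and black bars the mean ± SD. PtrCCoAOMT1, PtrCAld5H2, PtrCCR2 and PtrCAD1 lie clearly lower in the mutant, and the groups overlap for PtrCCoAOMT2 and PtrCAld5H1 on this scale.

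The methylation step ahead of CAld5H is served by the 3 CCoAOMT genes, which methylate caffeoyl-CoA to feruloyl-CoA. PtrCCoAOMT1 (Potri.009G099800.v4.1, chromosome 9 by its identifier, length 1313 bp) stood at 107, 98.4 and 93.6 scaled FPKM in the wild type and at 59.2, 64.7 and 67.5 in the mutant. Every mutant library was below every wild type library. The mean fell from 99.7 ± 6.90 to 63.8 ± 4.21 (SD, n = 3 each), a log2 fold change of -0.65 ± 0.05 (SE, adjusted p = 6.59e-14, edgeR).

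PtrCCoAOMT2 (Potri.001G304800.v4.1, chromosome 1, 1782 bp) went the other way from PtrCCoAOMT1. It stood at 37.3, 37.5 and 36.4 scaled FPKM in the wild type and at 36.9, 41.1 and 42.5 in the mutant. Mutant replicate 1 lay among the wild type libraries, so the groups overlapped. The log2 fold change was 0.12 ± 0.05 (SE), a rise of 8.34% that passed narrowly (adjusted p = 0.0349, edgeR). That call was lost without any one of wild type replicates 1, 2 or 3 or mutant replicates 2 or 3 (adjusted p = 0.0652 to 0.245, edgeR) and with DESeq2 (adjusted p = 0.141). Over all 14 alternatives the adjusted p ran from 3.39e-05 to 0.245, and each gave a positive difference. The log2 fold change was 0.24 with library totals only, and with the deposited FPKM the groups did not overlap. It was 0.07 without mutant replicate 3.

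PtrCCoAOMT3 (Potri.008G136600.v4.1, chromosome 8, 1003 bp) is the third gene of the step. It stood at 75.5, 79.9 and 68.9 scaled FPKM in the wild type and at 66.2, 63.6 and 67.0 in the mutant. The groups did not overlap, though the lowest wild type library was close to the highest mutant library, and with the deposited FPKM they overlapped. The fall of 12.2% (log2 fold change -0.19 ± 0.05 SE, adjusted p = 7.81e-04, edgeR) depended on the scaling. With library totals only, the difference shrank to -0.06 on the log2 scale (adjusted p = 0.250, edgeR), and over 14 alternatives the adjusted p ran from 6.45e-05 to 0.321.

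Ring hydroxylation, the entry to S units, is served by the CAld5H genes, a pair of cytochrome P450 enzymes. PtrCAld5H2 (Potri.007G016400.v4.1, chromosome 7, 2143 bp) stood at 24.1, 23.2 and 21.0 scaled FPKM in the wild type and at 13.4, 14.4 and 13.6 in the mutant. The groups were well apart, and the log2 fold change was -0.72 ± 0.06 (SE, adjusted p = 1.29e-15, edgeR), a fall of 39.3%. PtrCAld5H1 (Potri.005G117500.v4.1, chromosome 5, 2826 bp) stood at 17.7, 15.4 and 17.2 in the wild type and at 17.2, 18.1 and 18.2 in the mutant. Its groups overlapped. The difference was 0.09 on the log2 scale (95% interval -0.02 to 0.20, adjusted p = 0.140, edgeR), an interval that holds a rise of the size seen for PtrCCoAOMT2. With library totals only, the difference was 0.21 and passed (adjusted p = 5.58e-04, edgeR), and with the deposited FPKM the groups did not overlap. Its adjusted p over 14 alternatives ran from 5.58e-04 to 0.684.

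The reduction steps are represented by PtrCCR2, for the CoA ester, and PtrCAD1, for the aldehydes. PtrCCR2 (Potri.003G181400.v4.1, chromosome 3, 1531 bp) stood at 109, 118 and 108 scaled FPKM in the wild type and at 87.6, 89.5 and 86.6 in the mutant. The mutant libraries were closely spaced and all lower, with a log2 fold change of -0.34 ± 0.04 (SE, adjusted p = 8.03e-11, edgeR), a fall of 21.1%. With library totals only, the log2 fold change was -0.22 (adjusted p = 3.32e-06, edgeR). PtrCAD1 (Potri.009G095800.v4.1, chromosome 9, 2075 bp) stood at 142, 134 and 136 in the wild type and at 89.1, 101 and 97.1 in the mutant. It fell by 30.3% without overlap (log2 fold change -0.52 ± 0.04 SE, adjusted p = 1.79e-16, edgeR). PtrCCoAOMT1, PtrCAld5H2, PtrCCR2 and PtrCAD1 were each called lower under all 14 alternatives tried.

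These falls were moderate for this comparison. Of all tested genes, 26.3% had a larger absolute log2 fold change than PtrCAld5H2, 34.4% a larger one than PtrCAD1 and 47.6% a larger one than PtrCCR2. The 3 weakest differences, of PtrCCoAOMT3, PtrCCoAOMT2 and PtrCAld5H1, were exceeded by 66.5%, 78.5% and 82.9% of tested genes. All 7 were among the better expressed genes, with 75.4% (PtrCAld5H2) to 98.5% (PtrCAD1) of tested genes at a lower mean count level.

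The copies of each enzyme changed by unequal amounts. In each of 2 pairs the copy that led per length in the wild type held a smaller share in the mutant. PtrCCoAOMT1 was paired with PtrCCoAOMT2, and PtrCAld5H1 with PtrCAld5H2, as a choice made here that was not checked against sequence. A ratio of copies within a library does not depend on how libraries are scaled. PtrCCoAOMT1 exceeded PtrCCoAOMT2 2.69-fold in the wild type and 1.59-fold in the mutant. The log2 ratio moved from 1.43 ± 0.09 to 0.67 ± 0.01 (SD, n = 3 each). The mutant SD of 0.01 is below what counting error alone gives, so it understates the uncertainty of that ratio. The ratio of PtrCAld5H1 to PtrCAld5H2 moved from 0.738 to 1.29, or on the log2 scale from -0.44 ± 0.15 to 0.37 ± 0.05. Set against PtrCCoAOMT3 instead, the log2 ratio of PtrCCoAOMT1 moved from 0.42 ± 0.11 to -0.04 ± 0.10 and that of PtrCCoAOMT2 from -1.01 ± 0.09 to -0.71 ± 0.12, also without overlap (two-sided exact permutation p = 0.1 each).

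The shift was larger than the spread between libraries in each pair. The log2 ratios changed by -0.76 and 0.81, without overlap between genotypes. Each two-sided exact permutation test gave p = 0.1, the smallest that 3 against 3 libraries allow. Levels of 67.1% of all tested genes did not overlap either, and how often ratios of other gene pairs do so was not computed. Leaving out any one library kept the first change between -0.79 and -0.71 and the other between 0.73 and 0.88. As a share of its pair, PtrCCoAOMT1 made up 74.2%, 72.4% and 72.0% in the wild type libraries and 61.6%, 61.1% and 61.3% in the mutant libraries. PtrCAld5H2 made up 57.5%, 60.1% and 55.0% in the wild type, then 43.7%, 44.3% and 42.8% in the mutant, so that PtrCAld5H1 was the more abundant copy in all 3 mutant libraries and in no wild type library. How reads that match both copies were counted is not given in the sources used here, so the split within a pair is less certain than its sum.

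**Figure D2:**
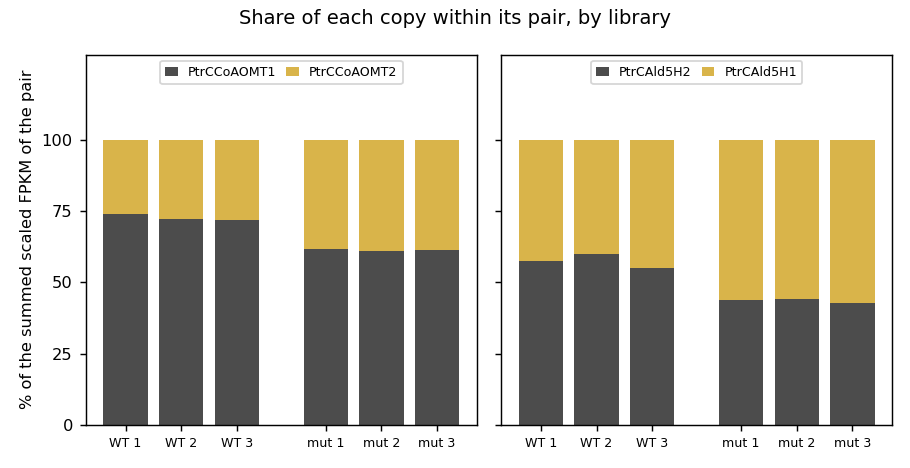
Share of each copy in the summed scaled FPKM of its pair (vertical axis, percent), one bar per library, wild type (WT) at left and mutant (mut) at right in each panel. The dark copy, which leads per length in the wild type, holds a smaller share in every mutant library. For CAld5H it drops from 55.0% or more to 44.3% or less.

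Transcripts of the genes followed at each of the 4 steps were lower in the mutant, summed over copies for CCoAOMT and CAld5H. Other genes of these enzyme families were not counted. The PtrCCoAOMT1 and PtrCCoAOMT2 sum went from 137 ± 7.29 to 104 ± 7.11 scaled FPKM (SD, n = 3 each), and that of all 3 CCoAOMT genes stood at 80.1% of the wild type level. The CAld5H sum went from 39.5 ± 1.99 to 31.7 ± 0.96, or 80.1% of it. With the deposited FPKM, the sum of the 3 CCoAOMT genes stood at 87.3% of the wild type level and the CAld5H sum at 87.2%. None of these sums overlapped between genotypes on either scale, and each gave p = 0.1 by the two-sided exact permutation test, the smallest possible. For comparison, the single genes PtrCCR2 and PtrCAD1 stood at 78.9% and 69.7%. The sum of the 7 genes went from 499.9 ± 16.4 to 384.9 ± 13.2 scaled FPKM, 23.0% lower (exact permutation p = 0.1).

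**Figure D3:**
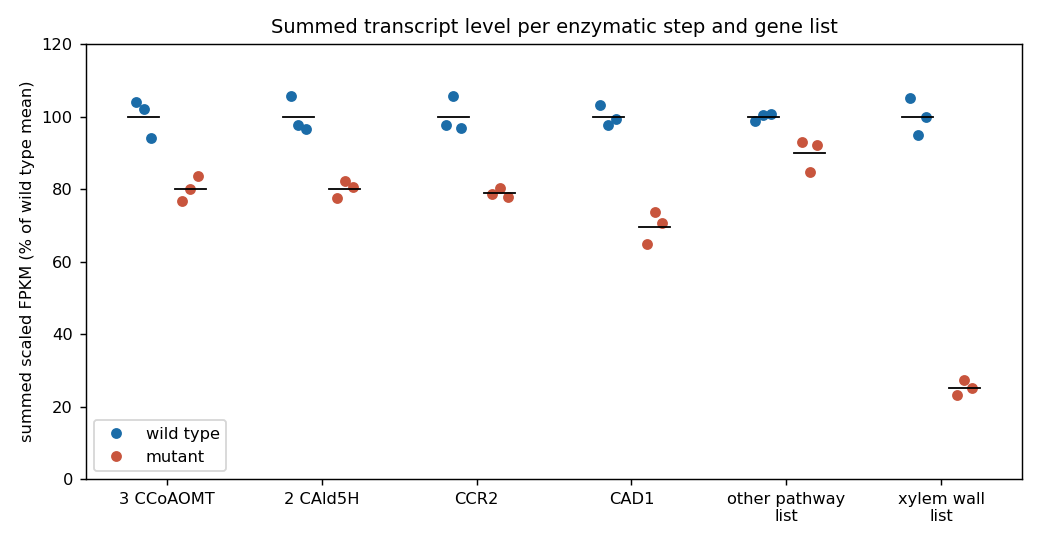
Summed scaled FPKM of the genes followed at each enzymatic step and of 2 further gene lists (vertical axis, percent of the wild type mean). Points are libraries and lines the means, wild type in blue and mutant in red. The CCR and CAD steps are represented by 1 gene each. The 4 steps lie at 69.7% to 80.1% of the wild type level in the mutant, the other pathway list at 89.9% and the xylem wall list at 25.3%, all with TMM scaling. With the deposited FPKM the steps lie at 75.9% to 87.3%, the other pathway list at 97.9% with overlapping libraries and the xylem wall list at 27.5%. In the other pathway list, 1 gene with little difference, Potri.006G126800.v4.1, supplies 355 of 804 scaled FPKM in the wild type and 351 of 723 in the mutant.

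The shares of the 4 steps in the 7-gene sum shifted by a few percentage points at most. The CCoAOMT step went from 42.3% ± 0.85 to 44.1% ± 0.97 and the CAD step from 27.5% ± 0.94 to 24.9% ± 0.83 (SD, n = 3 each). These shares did not overlap between genotypes (two-sided exact permutation p = 0.1 each, the smallest possible). The CAld5H share (7.91% ± 0.26 and 8.23% ± 0.09, exact p = 0.2) and the CCR share (22.3% ± 1.01 and 22.9% ± 0.82, exact p = 0.5) overlapped. For CAld5H this depended on the division by length. Without it, the CAld5H share was 0.95 percentage points higher in the mutant (exact permutation p = 0.1, the smallest possible). Shares of one sum depend on each other.

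The order of mean levels among the 7 genes differed between the genotypes in 2 places. PtrCAld5H1 and PtrCAld5H2 exchanged their order per length, and PtrCCoAOMT1 and PtrCCoAOMT3 came to nearly equal levels. In the wild type PtrCAD1 was the most abundant per length, followed by PtrCCR2, PtrCCoAOMT1, PtrCCoAOMT3, PtrCCoAOMT2, PtrCAld5H2 and PtrCAld5H1, each apart from the next. In the mutant PtrCAD1 (95.8 ± 6.12) and PtrCCR2 (87.9 ± 1.47) overlapped. PtrCCoAOMT3 and PtrCCoAOMT1, with means of 65.6 and 63.8, also overlapped. The order of these means rests on mutant replicate 1 (66.2 and 59.2), since PtrCCoAOMT1 was slightly higher in mutant replicates 2 and 3. PtrCAld5H1 stood above PtrCAld5H2.

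Among the other members, PtrCCoAOMT1 had the pattern most like that of PtrCAD1, the most abundant gene. Likeness was measured as the root mean square difference, over the 6 libraries, of log2(CPM + 0.1) centred on each gene's mean, and was 0.0814 for PtrCCoAOMT1, 0.115 for PtrCAld5H2 and 0.119 for PtrCCR2. It was 0.195 for PtrCCoAOMT3 and 0.311 and 0.321 for PtrCAld5H1 and PtrCCoAOMT2. Among 13682 other genes above the median level, the nearest were Potri.002G057100.v4.1 (0.0250), Potri.015G049100.v4.1 (0.0257) and Potri.002G207286.v4.1 (0.0258). With 2 genotypes this measure mostly matches genes by the size of their genotype difference, and log2 fold changes of these 3 were -0.56, -0.50 and -0.52.

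The genes next to the members in identifier order had medians near 0 or above it. Among the 10 nearest tested genes, 5 on either side, the median log2 fold change was 0.14 around PtrCCoAOMT1. It was 0.37 around PtrCAld5H1 and 0.32 around PtrCAld5H2. Neighbours called higher and lower numbered 8 and 0 around PtrCAld5H2, 5 and 3 around PtrCAld5H1, and 3 and 2 around PtrCCoAOMT1. They numbered 1 and 4 around PtrCCoAOMT2, 2 and 3 around PtrCCoAOMT3 and PtrCCR2, and 4 and 4 around PtrCAD1. Of all tested genes, 33.1% were called higher and 31.0% lower. Around PtrCCR2 and PtrCAD1 the medians were both -0.08, around PtrCCoAOMT2 -0.07 and around PtrCCoAOMT3 0.01. The order of identifiers was taken as the order of genes.

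A list of 14 identifiers entered as the earlier genes of the same pathway (phenylalanine ammonia-lyase, cinnamate 4-hydroxylase, coumarate 3-hydroxylase, 4-coumarate-CoA ligase, the shikimate hydroxycinnamoyl transferase and caffeoyl shikimate esterase) had a smaller median difference. The table does not annotate these identifiers, so they are given without gene names. Of the 14, 8 fell, 2 rose and 4 did not pass, with a median log2 fold change of -0.20. Over all tested genes, 64.1% passed, 31.0% lower and 33.1% higher, and whether the list differs from that was not tested. Potri.006G033300.v4.1 fell in level from 35.5 ± 1.06 to 21.5 ± 0.34 scaled FPKM (SD, n = 3 each; log2 fold change -0.72, adjusted p = 3.35e-21, edgeR), as far as PtrCAld5H2. Potri.001G042900.v4.1 rose from 9.02 ± 0.39 to 12.8 ± 1.42 (log2 fold change 0.51, adjusted p = 7.52e-08, edgeR). The most abundant gene of this list, Potri.006G126800.v4.1, stood at 355 ± 11.6 and 351 ± 35.2, with a log2 fold change of -0.01 (95% interval -0.24 to 0.21, adjusted p = 0.895, edgeR). The summed level of the list went from 804 ± 7.83 to 723 ± 36.8, or 89.9% of the wild type level, without overlap (exact permutation p = 0.1). Potri.006G126800.v4.1 alone supplied 355 and 351 of these sums, so the 89.9% leans on 1 gene with little difference. This difference rests on the TMM scaling, since with the deposited FPKM, which use library totals, the groups overlapped and the list stood at 97.9% (exact permutation p = 0.8). With limma on log2(FPKM + 1), which rests on library totals, 5 of the list fell in place of 8.

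**Figure D4:**
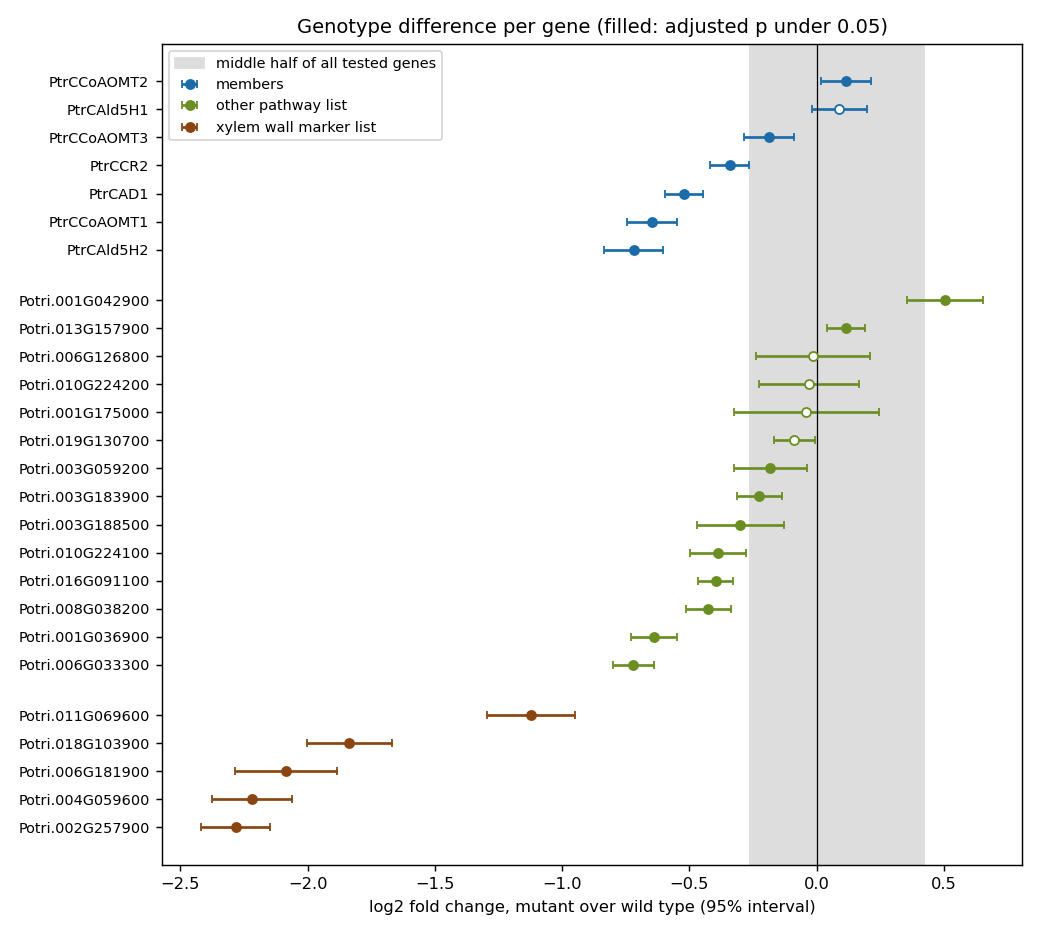
Log2 fold change of mutant over wild type (horizontal axis) with its 95% interval for the 7 genes (blue), the other pathway list (green) and the xylem wall list (brown); filled points have an adjusted p under 0.05 and the grey band spans the quartiles of all tested genes, -0.26 to 0.42. The 7 genes run from -0.72 to 0.12, and all xylem wall genes lie at -1.12 or below.

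A list entered as markers of xylem that is laying down secondary walls fell much further. It was entered as cellulose synthases of the secondary wall, 1 enzyme family, so its members are not separate measures of the amount of xylem. All 5 of its identifiers, which the table does not annotate either, were called lower (edgeR), against 31.0% of all tested genes. Their log2 fold changes were -2.28 to -1.12, with a median of -2.08, and none was at 0 in any library. Their summed level was 48.5 to 53.6 scaled FPKM in the wild type and 11.9 to 14.0 in the mutant, 25.3% of the wild type level. The 7 monolignol genes together thus stood at 9.81 times the marker sum in the wild type and 29.9 times in the mutant. The log2 ratio of the sums differed by 1.61 without overlap (two-sided exact permutation p = 0.1, the smallest possible). The part of a change in xylem tissue in the falls of the monolignol genes was not tested.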

How the data were processed

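Per the file headers, the deposited table holds counts and FPKM per gene for 6 stem libraries. The deposited counts are whole numbers with differing totals and were taken to be raw. The authors' FPKM rest on 1 whole length per gene (within 0.01 bp for 100% of 185484 values above 0) and on library totals. Not given in the sources used here are the aligner, counting tool, genome build, strand setting and the handling of reads that match several genes. All per-sample columns matched a sample by title. The test was run in edgeR 4.0.16 (R 4.3.3) on the counts: filterByExpr (minimum count 10, minimum total 15) left 27382 genes, libraries were scaled by TMM, and glmQLFit (robust=TRUE) with glmQLFTest compared genotypes without a block. Standard errors and 95% intervals were derived from the F statistic. Benjamini-Hochberg adjustment covered all tested genes, with 0.05 as the threshold for a call. Single values were compared by two-sided exact permutation (scipy 1.17.1). P-values measure the spread between pools of plants, which the labels describe as biological replicates. Alternatives included DESeq2 1.42.0, limma 3.58.1 on log2(FPKM + 1) and log2(FPKM + 0.1), other scalings, no filter, a replicate block and leaving out each library. The edgeR script was tested on simulated data with few changed genes, up and down alike. That setting is unlike these data and does not test how small calls depend on the scaling. The members and lists were chosen with earlier results of these data known. The list held 9 identifiers, of which 7 are described, and the others are not reported here. Named were these members, pathway genes from their list, and the 3 genes most like the most abundant member. Step shares, the ratio to the xylem list, the sums of other gene sets with their deposited FPKM and the neighbouring genes were added after seeing the data. Lists defined by product names (enzyme families, methyl donor supply, phloem and green tissue) were not run, since no annotation was used here, and no sequence is shown.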

Additional observations from a re-analysis of the deposited data

How the results depend on the processing

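Each of the 7 log2 fold changes kept its sign under all 14 alternatives, and the changes of calls, for PtrCCoAOMT2, PtrCCoAOMT3 and PtrCAld5H1, concern differences of at most 12.2% with TMM scaling. The number of members called higher was 1, but 0 with DESeq2 and 0 to 1 when 1 library was left out (1 only without mutant replicate 1), whereas 5 were called lower in each of these. It was 2 with library totals only and with limma on log2(FPKM + 1) or log2(FPKM + 0.1), with 4 lower. With limma at these offsets, the other pathway list had 5 called lower in each, and all tested genes 5607 and 5575. Replicate numbers did not pair the libraries: same-numbered deviations correlated at -0.07, -0.01 and -0.06, and no library was most like its own number in the other genotype. With the replicate block, 6 members and 17334 genes were called, against 6 and 17558 without it. Leaving out 1 library gave 16605 to 17115 called genes. With the deposited FPKM the summed pairs changed by -0.27 (PtrCCoAOMT1 and PtrCCoAOMT2) and -0.20 (CAld5H) on the log2 scale, against -0.40 and -0.32. With 3 libraries per genotype, differences of the size of PtrCCoAOMT2 and PtrCAld5H1 were not settled.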
